A study of Homo sapiens with 12 samples.

Results

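The genes described here are 10 feedback and output genes of the ERK pathway: the phosphatase genes DUSP4, DUSP5 and DUSP6, the Sprouty genes SPRY2 and SPRY4, the Sprouty-related genes SPRED1 and SPRED2, the ETS transcription factor genes ETV4 and ETV5, and PHLDA1. They were listed by symbol, but with earlier results of these data known. All 10 were among the 20307 genes of an mRNA sequencing table and among the 13645 that were tested. Expression was given as TPM (a transcript level scaled for transcript length and to the same total in every library), in Hep3B and Huh7, both established human hepatocellular carcinoma lines. Each of 6 groups held 2 libraries, named A1 and B1. Hep3B cells were a control, cells given 20 µM lenvatinib, cells given 20 µM WWL70, and cells given 20 µM WWL70 together with lenvatinib, called the combination below. Huh7 cells were a control and a lenvatinib-resistant population. Neither the length of exposure nor the dose of lenvatinib in the combination is in the labels, nor is the way in which the resistant cells were derived or whether they were kept in the drug. Since nothing says that A1 and B1 were separate cultures, p-values here reflect the spread between libraries alone, and that spread may be technical. Lenvatinib is a kinase inhibitor whose targets include the VEGF and FGF receptors, PDGFRA, KIT and RET. WWL70 is a carbamate inhibitor of the serine hydrolase ABHD6.

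Receptor tyrosine kinases pass their signal through RAS, RAF and MEK to the kinase ERK, which enters the nucleus and turns on a set of genes that includes those described here. Several of these genes encode proteins that damp the same cascade: DUSP phosphatases remove phosphate from ERK, and Sprouty and SPRED proteins act on the steps between the receptor and RAF. Their transcripts are short-lived and are widely used as a read-out of ERK activity, and in hepatocytes and liver cancer cells FGF receptors are one of the inputs to this cascade. RNA levels alone do not measure ERK phosphorylation, which was not measured here.

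Between 14602 and 15474 genes were above 0 in a library. All 10 hepatocyte markers examined were present at a mean of at least 1 TPM in every group, while of 12 markers of other cell types 5 (PTPRC, CD3E, VWF, DCN and ACTA2) were below 1 TPM in every library. The other 7 reached at least 1 TPM somewhere, with the macrophage marker CD68 highest (6.27 to 124 TPM), COL1A2 at 0.492 to 20.9 TPM, PECAM1 at 0.039 to 11.9 TPM and LUM at 0.432 to 10.4 TPM. The combination library A1 stood apart: its median TPM over all genes was 2.96 against 6.32 in B1, and the longer a transcript, the lower it tended to be there relative to the Hep3B controls (Spearman -0.523 over 13573 genes, against 0.00118 in B1). The longest annotated transcripts of the 10 genes span 2429 to 8069 bases, so values without that library are given beside the results that rest on the combination. The A1 and B1 libraries differed by a median of 0.755 on the log2 scale in the combination, 0.324 in resistant cells and 0.242 with lenvatinib, against 0.114 to 0.134 in the other 3 groups. In these first 3 groups A1 deviated from B1 in the same genes, with correlations of the deviations over genes of 0.681 for lenvatinib with the combination, 0.616 for lenvatinib with resistant cells and 0.739 for the combination with resistant cells.

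RefSeq promoter windows on GRCh38.p14, each 300 bases long around an annotated start, were found for 6 of the 10 genes, in 9 windows. Those of DUSP6, SPRY2 and SPRY4 are printed because these 3 genes followed one another most closely across the Hep3B libraries. They lie at chr12:89352452-89352751, chr13:80341077-80341376 (1 of 3 SPRY2 windows) and chr5:142324198-142324497, all on the minus strand, and are written 5′ to 3′ on the strand of the gene. Capitals mark every match, on either strand, to CCGGAA (the core bound by ETS factors, which include ETV4 and ETV5), TGANTCA (AP-1), TGACGTCA (CRE) and GCGNGGGCG (EGR), and no match overlaps another.
DUSP6: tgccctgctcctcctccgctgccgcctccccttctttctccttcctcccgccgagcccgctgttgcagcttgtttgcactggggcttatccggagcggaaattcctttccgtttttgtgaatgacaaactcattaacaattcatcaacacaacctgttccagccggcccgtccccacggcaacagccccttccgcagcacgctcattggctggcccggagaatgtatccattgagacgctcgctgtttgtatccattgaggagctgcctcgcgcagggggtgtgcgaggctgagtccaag
SPRY2: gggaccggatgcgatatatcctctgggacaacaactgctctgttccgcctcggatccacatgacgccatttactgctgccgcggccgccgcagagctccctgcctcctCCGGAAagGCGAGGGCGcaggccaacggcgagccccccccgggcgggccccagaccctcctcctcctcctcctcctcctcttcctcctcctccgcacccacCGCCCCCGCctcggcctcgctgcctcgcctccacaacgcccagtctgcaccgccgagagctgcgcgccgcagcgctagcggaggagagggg
SPRY4: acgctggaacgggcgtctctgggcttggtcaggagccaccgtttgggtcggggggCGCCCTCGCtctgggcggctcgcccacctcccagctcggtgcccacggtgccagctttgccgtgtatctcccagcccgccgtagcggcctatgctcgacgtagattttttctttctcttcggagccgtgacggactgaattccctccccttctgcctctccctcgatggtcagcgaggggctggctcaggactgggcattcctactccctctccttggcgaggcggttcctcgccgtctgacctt
The SPRY2 window holds an ETS core that begins 142 bases before the start and EGR matches that begin 134 and 41 bases before it. The SPRY4 window holds an EGR match that begins 195 bases before the start, and the DUSP6 window holds none of these letters. Among the 6 genes, ETS core matches were in windows of SPRY2 and PHLDA1, EGR matches in SPRY2 and SPRY4, and AP-1 matches in SPRED2. Over all 35116 RefSeq promoter windows, 17.2% hold the ETS core, 9.43% the EGR motif, 7.71% the AP-1 motif and 1.85% the CRE. No motif was common to the 3 printed windows.

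The levels in untreated cells set the scale for what follows. The ERK phosphatase DUSP6 (chromosome 12, 89347232 to 89353271), which acts in the cytoplasm, was the most abundant of the 10 genes in both lines, with 83.1 and 81.0 TPM in the Hep3B control libraries and 165 and 183 TPM in those of Huh7. DUSP5 (chromosome 10, 110497838 to 110511544), a nuclear phosphatase for ERK, stood at 2.83 and 2.86 TPM in Hep3B but 77.9 and 80.1 TPM in Huh7. DUSP4 (chromosome 8, 29333064 to 29350668), a nuclear phosphatase that acts on ERK and JNK, stood at 1.77 and 1.35 TPM in Hep3B and 9.60 and 9.37 TPM in Huh7. The 3 phosphatase genes were thus all higher in both Huh7 libraries, and the difference was far larger for DUSP5 than for DUSP6.

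Of the 10 genes, 4 were higher in untreated Huh7 and 1 was lower at a limma adjusted p under 0.05, where 13.3% of all tested genes were called higher, 21.1% lower and 34.4% in either direction. The called differences, on the log2(TPM + 1) scale used for every fold change here, were DUSP5 (4.38, SE 0.24, adjusted p = 2.63e-06), DUSP4 (2.04, SE 0.27), ETV4 (1.62, SE 0.25), SPRY4 (1.59, SE 0.27) and PHLDA1 (-2.11, SE 0.27), all at a limma adjusted p of 0.00183 or less. These 5 calls were kept in all 26 alternatives run. DUSP6 (1.07, adjusted p = 0.0642), SPRY2 (0.79, adjusted p = 0.0561) and ETV5 (1.19, adjusted p = 0.0987) were higher in both Huh7 libraries without passing. Without overlap 8 genes were higher and 2 lower in Huh7, beside 35.2% and 49.9% of all tested genes. Without the combination group 9 genes were called, against 53.8% of all genes, and SPRED2 was the exception. SPRED2 stood at 68.3 and 72.7 TPM in Hep3B and 77.0 and 75.8 TPM in Huh7 (log2 0.11, 95% interval -1.01 to 1.24).

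**Figure D1:**
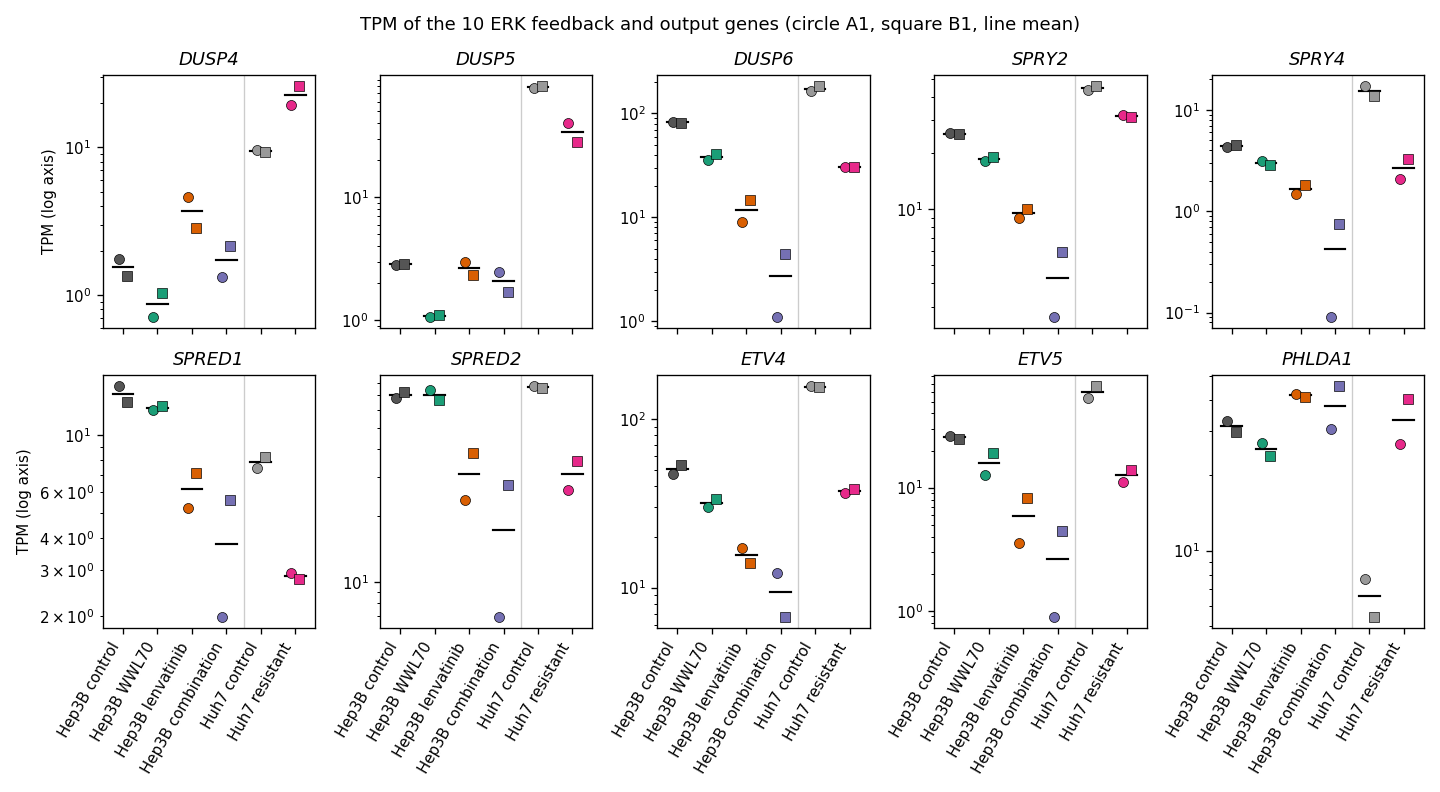
TPM of each of the 10 genes in each library, on a log axis that differs between panels. Circles are A1 libraries, squares B1 libraries and lines group means, with Hep3B groups left of the grey line and Huh7 groups right of it. DUSP6, SPRY2, SPRY4 and ETV4 step down through WWL70, lenvatinib and the combination without overlap between neighbouring Hep3B groups, while PHLDA1 and DUSP4 do not.

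The next comparison asked how these genes differed in Hep3B cells exposed to lenvatinib. DUSP6, ETV4 and SPRY2 fell, and none of the 10 rose. DUSP6 stood at 8.94 and 14.7 TPM with lenvatinib against 83.1 and 81.0 TPM in the control, which is 14.4% of the control mean (log2 -2.73, SE 0.39, adjusted p = 0.0113, limma). ETV4 (chromosome 17, 43527844 to 43579620), an ETS transcription factor of the PEA3 group, stood at 17.3 and 14.0 TPM against 47.0 and 53.4 TPM (31.2% of control; log2 -1.62, SE 0.25, adjusted p = 0.0168). SPRY2 (chromosome 13, 80335976 to 80340951), a Sprouty inhibitor of receptor signalling, stood at 8.98 and 9.996 TPM against 25.5 and 25.4 TPM (37.3% of control; log2 -1.34, SE 0.28, adjusted p = 0.0453). The 3 calls among 10 genes compare with 1.10% of all tested genes called lower, 1.38% called higher and 2.48% in either direction. The median change of the 10 genes was -1.16 on the log2 scale, beside -0.07 over all tested genes.

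A further 4 genes were lower in both lenvatinib libraries than in both controls without passing. ETV5 (chromosome 3, 186046308 to 186110318), the closest relative of ETV4 in the list, stood at 3.54 and 8.30 TPM against 26.34 and 25.004 TPM (log2 -2.04, SE 0.50, adjusted p = 0.0827). The change of ETV5 was larger than that of ETV4, and its lenvatinib libraries lay further apart. SPRY4 (chromosome 5, 142310427 to 142326455), also a Sprouty gene, stood at 1.49 and 1.80 TPM against 4.34 and 4.46 TPM (log2 -1.03, adjusted p = 0.105). SPRED1 (chromosome 15, 38252326 to 38357249), which recruits neurofibromin to restrain RAS, stood at 5.21 and 7.11 TPM against 15.4 and 13.4 TPM (log2 -1.11, adjusted p = 0.167). SPRED2 (chromosome 2, 65310851 to 65432637), its paralog, stood at 23.5 and 38.3 TPM against 68.3 and 72.7 TPM (log2 -1.20, adjusted p = 0.328). All 4 had a lenvatinib mean of between 23.1% and 43.9% of the control mean.

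The other 3 genes did not go down with these. DUSP4 stood at 4.61 and 2.87 TPM with lenvatinib against 1.77 and 1.35 TPM in the control (log2 0.87, SE 0.27, adjusted p = 0.167, limma). PHLDA1 (chromosome 12, 76025447 to 76033932), which encodes a pleckstrin homology-like domain protein, stood at 42.2 and 41.2 TPM against 32.8 and 29.8 TPM (log2 0.40, SE 0.27, adjusted p = 0.624). Both were higher in both lenvatinib libraries, although neither passed. DUSP5 stood at 2.96 and 2.35 TPM against 2.83 and 2.86 TPM, with overlapping groups (log2 -0.08, 95% interval -0.63 to 0.47). Counting all 10, 7 genes were lower and 2 higher without overlap, beside 34.8% and 24.2% of all tested genes.

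The SPRY2 call was lost in 14 of 27 alternatives, among them pseudocount 0.1 (adjusted p = 0.0769, limma), no filter on low values (adjusted p = 0.0528) and rescaling without the most abundant genes (adjusted p = 0.0624). The ETV4 call was lost in 6, among them median-ratio scaling (adjusted p = 0.0814), and the DUSP6 call in 5. A fit on the control and lenvatinib groups alone called the same 3, but the share of all genes it called is not given here. That count shows how calls moved, not a trait of the 10 genes. Without the combination group, or without either of its libraries alone, 8 of the 10 were called, 7 lower and DUSP4 higher, where 5.64% of all genes were called higher and 6.41% lower without that group and 12.1% in either direction without either library. Without the A1 libraries of the lenvatinib, combination and resistant groups, a choice made after seeing the data, 7 were called lower (19.3% of all genes in either direction). Leaving out any 1 of the 4 control and lenvatinib libraries left 0 called, beside 0.205% to 0.330% of all genes (0.220% without control A1). The 10 hepatocyte markers summed to 43997 and 43997 TPM in the lenvatinib libraries against 20737 and 21772 TPM in the controls, and 3 of them rose (APOA1, TF and SERPINA1). Markers of other cell types summed to 87.4 and 106 TPM against 85.8 and 101 TPM, and COL1A2 fell. The part of these shifts in the results was not tested.

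WWL70 alone addressed whether an ABHD6 inhibitor shifts the same genes. None of the 10 passed (0 in limma at an adjusted p under 0.05), where 2 of 13645 genes did, 0.0147% in either direction. DUSP6 stood at 35.3 and 40.4 TPM with WWL70 against 83.1 and 81.0 TPM in the control (46.1% of control; log2 -1.10, 95% interval -1.99 to -0.21). DUSP5 stood at 1.07 and 1.10 TPM against 2.83 and 2.86 TPM (38.1% of control; log2 -0.88, 95% interval -1.43 to -0.33). ETV4 stood at 30.1 and 33.3 TPM against 47.0 and 53.4 TPM (63.1% of control; log2 -0.65, 95% interval -1.22 to -0.08). These 3 were the genes at an unadjusted limma p under 0.05, with 2.87% of all tested genes there, and their adjusted p-values were 0.981 to 1.

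SPRY2 stood at 18.1 and 19.0 TPM with WWL70, SPRY4 at 3.15 and 2.83 TPM, SPRED1 at 12.5 and 12.9 TPM, ETV5 at 12.7 and 19.2 TPM, PHLDA1 at 27.0 and 23.9 TPM and DUSP4 at 0.714 and 1.03 TPM, each below both controls. With DUSP6, DUSP5 and ETV4 that made 9 genes lower without overlap, beside 26.3% of all tested genes. SPRED2 stood at 74.1 and 66.7 TPM, overlapping its controls (log2 -0.002, 95% interval -1.13 to 1.12), and its sign turned under other scalings. The median change of the 10 genes was -0.45 on the log2 scale, beside -0.01 over all tested genes. With limma array weights, DUSP5, DUSP6 and ETV4 were called lower (2.09% of all genes called), and without the 3 A1 libraries named above DUSP6 was (0.322%).

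**Figure D2:**
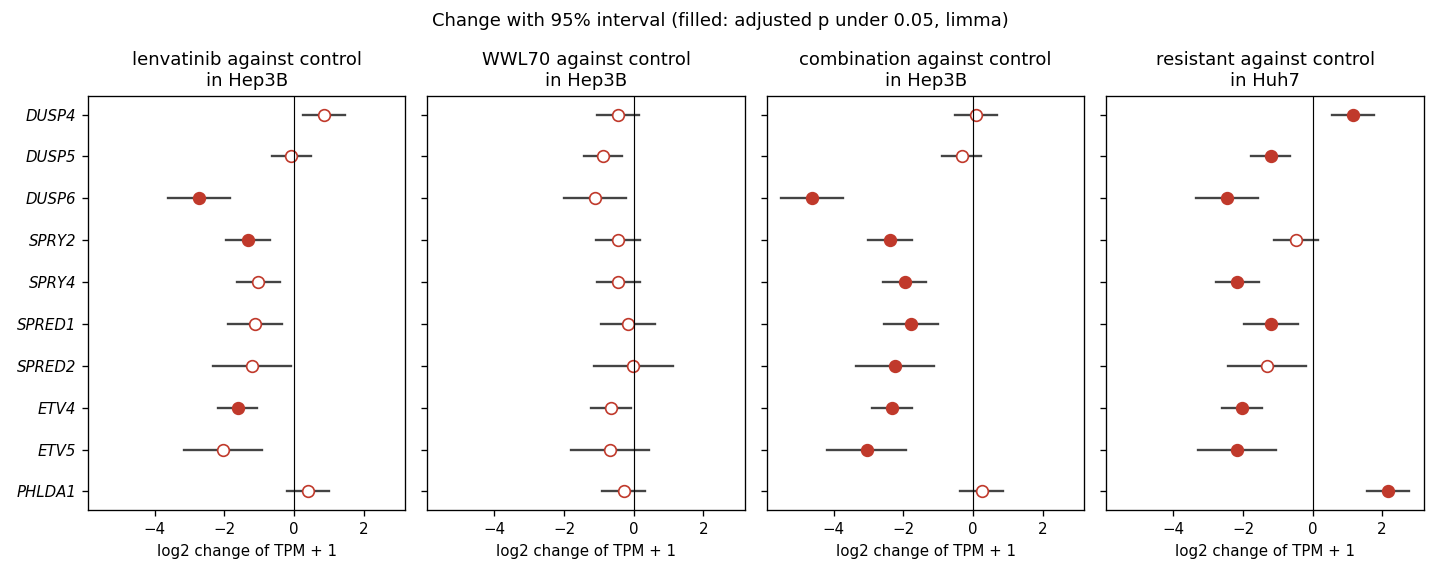
Change of each gene on the log2(TPM + 1) scale in 4 comparisons, with 95% intervals from limma. Filled points have an adjusted p under 0.05. Called genes number 3 with lenvatinib, 0 with WWL70, 7 with the combination and 8 in resistant Huh7, and PHLDA1 and DUSP4 lie right of 0 in every panel but that of WWL70.

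The combination of WWL70 and lenvatinib gave the lowest levels of 7 of the 10 genes among the Hep3B groups. DUSP6, ETV5, SPRY2, ETV4, SPRED2, SPRY4 and SPRED1 fell against the control, and no gene of the 10 rose. DUSP6 stood at 1.11 and 4.40 TPM against 83.1 and 81.0 TPM, 3.36% of the control mean (log2 -4.62, SE 0.39, adjusted p = 0.000426, limma). ETV5 stood at 0.896 and 4.41 TPM against 26.34 and 25.004 TPM (10.3% of control; log2 -3.06, SE 0.50, adjusted p = 0.00874). ETV4 stood at 12.2 and 6.71 TPM against 47.0 and 53.4 TPM (18.9% of control; log2 -2.34, SE 0.25, adjusted p = 0.00140). Both ETS genes fell, and the library with the lower value was A1 for ETV5 and B1 for ETV4.

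SPRY2 stood at 2.64 and 5.92 TPM in the combination libraries against 25.5 and 25.4 TPM (16.8% of control; log2 -2.40, SE 0.28, adjusted p = 0.00210, limma). SPRY4 stood at 0.091 and 0.753 TPM against 4.34 and 4.46 TPM (9.58% of control; log2 -1.97, SE 0.27, adjusted p = 0.00417), and its change is understated on the log2(TPM + 1) scale because both combination values are below 1. SPRED1 stood at 1.99 and 5.59 TPM against 15.4 and 13.4 TPM (26.3% of control; log2 -1.79, adjusted p = 0.0171). SPRED2 stood at 6.97 and 27.5 TPM against 68.3 and 72.7 TPM (24.4% of control; log2 -2.25, adjusted p = 0.0285). All 4 Sprouty and SPRED genes fell, and all 4 were lower in A1 than in B1.

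DUSP5, DUSP4 and PHLDA1 again did not pass. DUSP5 stood at 2.49 and 1.68 TPM in the combination (log2 -0.33, 95% interval -0.88 to 0.22), DUSP4 at 1.33 and 2.14 TPM (log2 0.09, 95% interval -0.52 to 0.69) and PHLDA1 at 30.6 and 45.3 TPM (log2 0.25, 95% interval -0.37 to 0.86). PHLDA1 and DUSP4 overlapped their controls. The 7 falls compare with 6.41% of all tested genes called lower, 2.44% called higher and 8.85% in either direction. The median change was -2.11 for the 10 genes and -0.34 over all tested genes, and 8 of the 10 were lower without overlap, beside 40.5% of all.

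In the combination, 8 of the 10 genes were lower in A1 than in B1. Without A1, in which long transcripts were low, the same 7 genes were called lower, with DUSP6 at log2 -3.94, ETV4 at -2.73, ETV5 at -2.30, SPRY2 at -1.93, SPRY4 at -1.62, SPRED2 at -1.33 (39.0% of control, against 24.4% with both libraries) and SPRED1 at -1.22, where 9.03% of all genes were called in either direction. With the length trend removed the 7 were called lower and PHLDA1 higher, where 16.0% of all genes were called. Median-ratio scaling moved the median change of all genes from -0.34 to 0 on the log2 scale in this comparison. Under it the 7 falls ran from -4.30 for DUSP6 to -1.45 for SPRED1, and DUSP5 was at 0.001. Leaving out either Hep3B control library left 4 called (DUSP6, SPRY2, SPRY4 and ETV4), beside 1.43% of all genes without A1 and 1.37% without B1. A fit on the control and combination groups alone called 0 of all genes, and array weights, which gave the combination little weight, called DUSP6, SPRY2 and ETV4 (0.410% of all genes). The hepatocyte markers summed to 57931 and 63286 TPM in the combination, and 6 of the 10 rose (5 without A1), while markers of other cell types summed to 43.2 and 82.5 TPM and COL1A2 fell. The part of these shifts in the falls was not tested.

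Between the combination and lenvatinib alone, limma called 0 of the 10 genes and 3 of all 13645 (0.0220%), while 5 of the 10 were at an unadjusted p under 0.05, beside 11.1% of all tested genes. DUSP6 was at 1.11 and 4.40 TPM in the combination against 8.94 and 14.7 TPM with lenvatinib (log2 -1.89, 95% interval -2.78 to -0.998, adjusted p = 0.197). SPRY2 was at 2.64 and 5.92 against 8.98 and 9.996 TPM (log2 -1.06, adjusted p = 0.291), SPRY4 at log2 -0.93, DUSP4 at -0.78 and ETV4 at -0.72. These 5 were lower in both combination libraries than in both lenvatinib libraries, beside 23.4% of all genes. ETV5, SPRED1, SPRED2, DUSP5 and PHLDA1 overlapped.

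All 10 changes from lenvatinib to the combination were below 0, beside a median of -0.29 over all tested genes and -0.86 over the 10. The sizes depended in part on combination library A1, in which long transcripts were low. Without A1 the changes were -1.21 for DUSP6, -0.60 for SPRY2, -0.59 for SPRY4, -0.57 for DUSP4 and -0.44 for DUSP5. ETV5 was then at -0.26, SPRED2 at -0.13 and SPRED1 at -0.11. ETV4 was at -1.10, further below 0 than with both libraries, and PHLDA1 was at 0.12, with the sign turned. Without the A1 libraries of all 3 named groups DUSP6 alone was called, where 0.183% of all genes were.

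Against WWL70 alone, 7 of the 10 genes were lower in the combination (5.52% of all tested genes were called lower, 2.38% higher and 7.90% in either direction). DUSP6 was at 1.11 and 4.40 TPM against 35.3 and 40.4 TPM with WWL70 (log2 -3.52, SE 0.39, adjusted p = 0.00201, limma). ETV5 was called at log2 -2.38, SPRED2 at -2.24, SPRY2 at -1.96, ETV4 at -1.69, SPRED1 at -1.63 and SPRY4 at -1.53, and this comparison shares its combination libraries with the one above. DUSP4, DUSP5 and PHLDA1 were higher in both combination libraries than in both WWL70 libraries (log2 0.54, 0.55 and 0.53) without passing, beside 15.0% of all tested genes higher without overlap. Without combination A1 the same 7 were called, beside 8.22% of all genes, at log2 -2.84 for DUSP6, -2.08 for ETV4, -1.62 for ETV5, -1.50 for SPRY2, -1.33 for SPRED2, -1.18 for SPRY4 and -1.06 for SPRED1. Under median-ratio scaling ETV4 no longer passed (log2 -1.28, adjusted p = 0.0725) and PHLDA1 did (log2 0.95, adjusted p = 0.0304). Leaving out WWL70 A1 or B1 left 1 gene called, beside 0.733% and 1.28% of all genes, and leaving out either control library of Hep3B (3.63%) or of Huh7 (3.69%) left 4. The interaction, which asks whether the combination differs from the sum of both single changes on the log2 scale, called 0 of the 10 genes, with 0 at an unadjusted limma p under 0.05 (5.12% of all tested genes were), and 1 of all 13645 (0.00733%). For DUSP6 it was -0.79 (95% interval -2.05 to 0.47). With combination A1 left out it called 0 of the 10 and 0 of all genes, and DUSP6 was at -0.11. With B1 left out it called 4 genes together with 44.4% of all genes.

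Across the 4 Hep3B groups, the means of 7 genes ran in the order control, WWL70, lenvatinib, combination, and in 4 of these 7 (DUSP6, SPRY2, SPRY4 and ETV4) no neighbouring groups overlapped. With B1 as the only combination library the same 7 kept this order, but B1 overlapped the lenvatinib libraries for ETV5, SPRED1 and SPRED2. The share of all tested genes in this order was not computed, so these counts are descriptive. In the combination 40.5% of all tested genes were lower than in the control without overlap. SPRED2 was the least separated of the 7, with equal control and WWL70 levels. DUSP5 was lowest with WWL70, and DUSP4 and PHLDA1 were highest with lenvatinib and lowest with WWL70.

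The Huh7 comparison asked how lenvatinib-resistant cells differed from their control. All 10 genes differed without overlap, 8 lower and 2 higher, beside 36.7% and 31.0% of all tested genes. DUSP6, ETV5, SPRY4, ETV4, DUSP5 and SPRED1 fell, and PHLDA1 and DUSP4 rose, where 6.63% of all tested genes were called lower, 12.3% higher and 18.9% in either direction. DUSP6 stood at 30.6 and 30.4 TPM in resistant cells against 165 and 183 TPM (17.5% of control; log2 -2.47, SE 0.39, adjusted p = 0.00256, limma). DUSP5 stood at 40.3 and 28.0 TPM against 77.9 and 80.1 TPM (43.3% of control; log2 -1.21, SE 0.24, adjusted p = 0.00863). DUSP4 stood at 19.5 and 25.9 TPM against 9.60 and 9.37 TPM, 2.39 times its control (log2 1.16, SE 0.27, adjusted p = 0.0159). The 3 ERK phosphatase genes thus went in different directions in the same cells.

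ETV4 stood at 36.5 and 38.6 TPM in resistant cells against 156 and 155 TPM (24.1% of control; log2 -2.02, SE 0.25, adjusted p = 0.00063, limma). ETV5 stood at 11.2 and 14.0 TPM against 53.7 and 66.5 TPM (20.9% of control; log2 -2.17, SE 0.50, adjusted p = 0.0162). SPRY4 stood at 2.10 and 3.30 TPM against 17.1 and 13.6 TPM (17.6% of control; log2 -2.16, SE 0.27, adjusted p = 0.000651). SPRY2 lay closer to its control, at 32.1 and 31.3 TPM against 43.9 and 45.7 TPM (70.8% of control; log2 -0.49, 95% interval -1.12 to 0.15), and did not pass. The gap between the changes of these 2 Sprouty genes in Huh7 was not tested.

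SPRED1 stood at 2.93 and 2.78 TPM in resistant cells against 7.43 and 8.25 TPM (log2 -1.20, SE 0.34, adjusted p = 0.0403, limma), and SPRED2 at 26.0 and 35.4 TPM against 77.0 and 75.8 TPM (log2 -1.30, SE 0.50, adjusted p = 0.108). PHLDA1 stood at 26.6 and 40.1 TPM against 7.69 and 5.45 TPM, 5.08 times its control (log2 2.17, SE 0.27, adjusted p = 0.000637). Its resistant level lay in the range of the Hep3B groups, 23.9 to 45.3 TPM, which all exceeded the Huh7 control. The median change of the 10 genes was -1.25 on the log2 scale, beside -0.06 over all tested genes.

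The calls for DUSP6, SPRY4, ETV4 and PHLDA1 were kept in all 27 alternatives run. Leaving out Huh7 control A1, control B1 or resistant B1 left 4 genes called, with 9.20%, 9.15% and 12.3% of all genes. Without the combination group all 10 were called, with 39.8% of all genes. Of 12 markers of other cell types, 6 were tested and COL1A1, CD68 and LUM rose in resistant cells, and the list summed to 69.2 and 72.8 TPM against 35.0 and 37.4 TPM in the control, with KRT5 at 0 in resistant cells and CD3E, CDH5, DCN and ACTA2 at 0 in the control. PTPRC, the leukocyte marker, was at 0.163 and 0.518 TPM in resistant cells. The hepatocyte markers summed to 55333 and 62629 TPM against 36897 and 38587 TPM, and 3 rose (APOA1, TTR and FGB). Whether either shift has a part in these results was not tested. In cell lines a lower level cannot be told apart from fewer cells that express the gene.

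**Figure D3:**
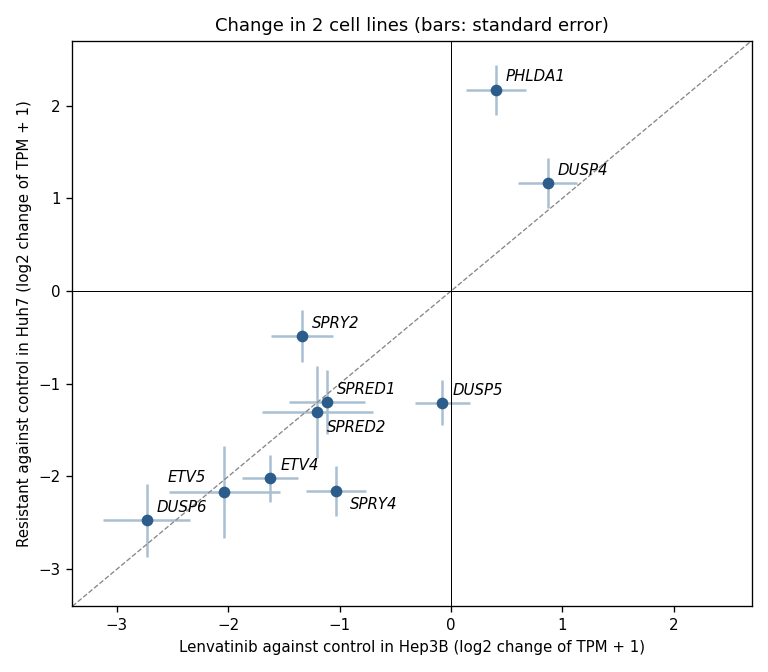
Change of each gene with lenvatinib in Hep3B (horizontal axis) and in resistant against control Huh7 (vertical axis), on the log2(TPM + 1) scale, with standard errors as bars and a dashed line of equal change. PHLDA1 lies furthest above the line, at 0.40 and 2.17, and DUSP5 and SPRY4 lie below it.

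Set side by side, the lenvatinib change in Hep3B and the resistance change in Huh7 had the same sign for all 10 genes, beside 66.5% of all tested genes. These comparisons share no library, but the lenvatinib and resistant A1 libraries deviated together, as given above. For DUSP5 the lenvatinib change was -0.08 with overlapping groups, and it turned to 0.04 without lenvatinib B1. The difference between them was called for PHLDA1, at 1.77 on the log2 scale (SE 0.38, adjusted p = 0.0276, limma), where 5.08% of all tested genes were called higher, 1.22% lower and 6.30% in either direction. DUSP5 (-1.13, 95% interval -1.91 to -0.35, adjusted p = 0.102) and SPRY4 (-1.13, 95% interval -1.99 to -0.26, adjusted p = 0.146) were lower in the resistance change at an unadjusted p under 0.05, beside 17.4% of all genes. For DUSP6 the difference was 0.26 (95% interval -0.998 to 1.52), for ETV5 -0.13 (95% interval -1.73 to 1.46) and for SPRED2 -0.10 (95% interval -1.69 to 1.49), intervals that leave room for differences of more than 1 log2 unit. SPRY2 was at 0.85 (adjusted p = 0.318). The PHLDA1 call was lost without either control library of Hep3B or Huh7, either lenvatinib library, either WWL70 library or resistant B1. Without the combination group, or without either of its libraries, PHLDA1 and SPRY2 were called higher and DUSP5 and SPRY4 lower (16.4% of all genes in either direction without that group). Line, exposure and resistance cannot be told apart in this difference.

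DUSP6, SPRY2, SPRY4, SPRED1, SPRED2, ETV4 and ETV5 are the 7 genes called lower in the Hep3B combination. High correlations among them over Hep3B libraries, and lower ones with the other genes, are thus in part built in by that choice. Over the 8 Hep3B libraries their 21 pairs had Pearson correlations of log2(TPM + 1) between 0.724 and 0.996. The highest were those of SPRY2 with SPRY4 and DUSP6 with SPRY2 (0.995). The 24 pairs with DUSP4, DUSP5 or PHLDA1 ran from -0.67 to 0.84, with DUSP4 and PHLDA1 at the top. Over all 12 libraries the 21 pairs ran from 0.342 to 0.984 and the other 24 from -0.844 to 0.863. The closest pair there was DUSP6 with ETV5 (0.984), and DUSP4 was closest to DUSP5 (0.863). Points within a correlation share libraries, treatment groups and 2 lines, so these values describe likeness and carry no test. Among tested genes outside the 10 with a mean of at least 5 TPM, those most like DUSP6 over the 12 libraries were TFPI (r = 0.995), KIF2C (0.981), PCBP1 (0.976), SCFD2 (0.973) and TNFSF4 (0.972). TFPI, which encodes an inhibitor of the tissue factor coagulation pathway, stood at 117 and 108 TPM in the Hep3B control, 30.5 and 42.5 TPM with lenvatinib, 70.1 and 85.1 TPM with WWL70, 11.8 and 20.2 TPM in the combination, 210 and 253 TPM in the Huh7 control and 61.5 and 67.0 TPM in resistant cells.

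The counts below are for other genes of the pathway, in lists chosen with earlier results of these data known. Of 16 further restraints on receptor and ERK signalling, 15 were tested, and DUSP9 rose in Hep3B with lenvatinib while none fell (1.38% and 1.10% of all tested genes), and 5 were at an unadjusted limma p under 0.05, beside 13.4% of all tested genes. DUSP9, a cytoplasmic ERK phosphatase of the same subfamily as DUSP6, stood at 16.3 and 17.4 TPM in the Hep3B control, 37.4 and 37.2 TPM with lenvatinib (log2 1.10, SE 0.19, adjusted p = 0.0212, limma) and 78.6 and 59.9 TPM in the combination (log2 1.96, adjusted p = 0.000738; 1.77 without A1). In Huh7 it stood at 158 and 136 TPM in the control and 261 and 223 TPM in resistant cells (log2 0.71, adjusted p = 0.0281). DUSP9 thus rose against the control in the lenvatinib, combination and resistance comparisons, in which DUSP6 fell.

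SPRY1, another Sprouty gene, stood at 26.2 and 31.5 TPM in the Hep3B control, 5.81 and 9.32 TPM with lenvatinib and 1.32 and 3.33 TPM in the combination (log2 -3.23 for the combination, adjusted p = 0.00302, limma; -2.78 without A1). In Huh7 it stood at 39.0 and 48.6 TPM against 3.61 and 8.34 TPM in resistant cells (log2 -2.76, adjusted p = 0.00172), a fall that SPRY2 did not show at this threshold. In the combination 2 further restraints rose and 2 fell, where 2.44% and 6.41% of all tested genes did: DUSP9 and PEBP1, a RAF inhibitor protein, were the rises, and SPRY1 and ERRFI1, an inhibitor of EGFR family receptors, were the falls. All 4 were called without A1 too, with ERRFI1 at -1.42 in place of -2.32, and PEA15 was then called higher. In resistant cells, where 12.3% of all tested genes rose and 6.63% fell, DUSP9, PEBP1 and PEA15, a protein that holds ERK in the cytoplasm, rose and SPRY1 fell. ETV1, the third gene of the PEA3 group, stood at 47.5 and 44.6 TPM in the Hep3B control against 2.57 and 10.3 TPM in the combination (log2 -2.89, adjusted p = 0.00759; -2.05 without A1) and at 22.0 and 25.2 TPM in the Huh7 control against 2.96 and 4.89 TPM in resistant cells (log2 -2.35, adjusted p = 0.00739).

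**Figure D4:**
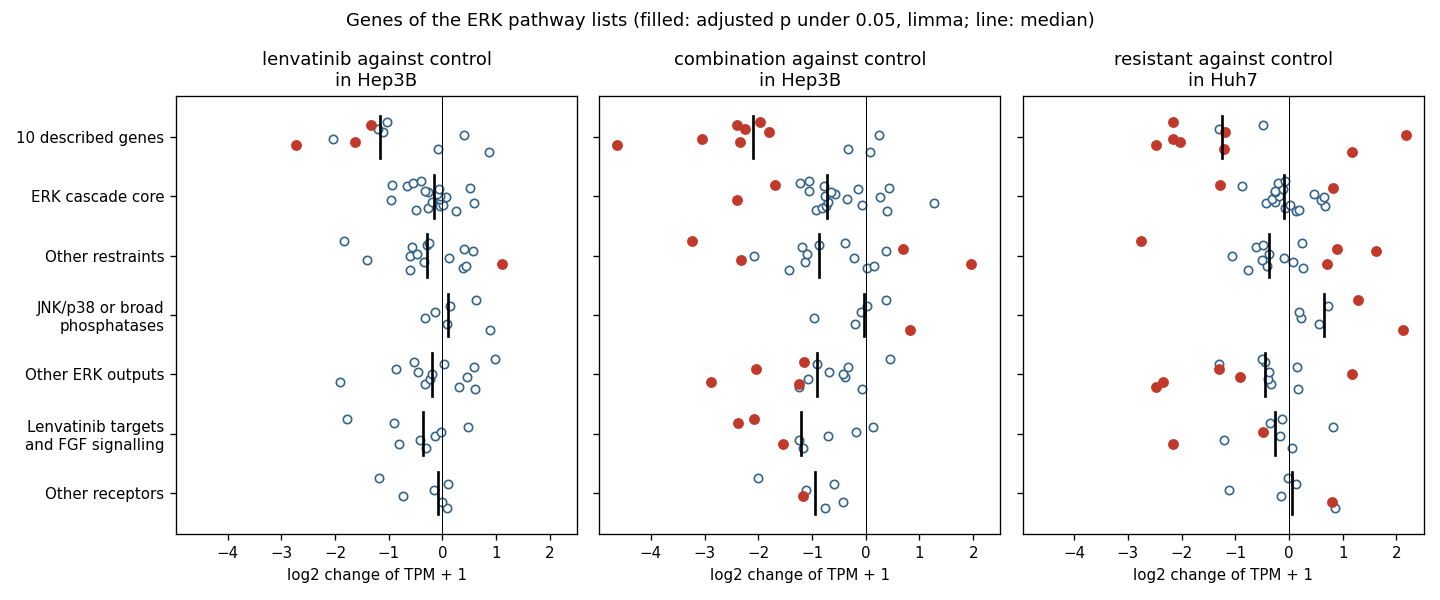
Change on the log2(TPM + 1) scale of every tested gene of 7 pathway lists in 3 comparisons, for lenvatinib, the combination and resistant Huh7. Filled points have an adjusted p under 0.05 and black lines are list medians. With lenvatinib the 10 described genes have a median of -1.16 and the 20 genes of the cascade itself one of -0.15.

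Of the cascade's 20 kinases, adaptors and other core genes, 0 were called with lenvatinib (3 at an unadjusted limma p under 0.05, near the 13.4% of all genes), 2 fell in the combination (the scaffold KSR1 and the adaptor SHC1; 8.85% of all genes were called there in either direction), and in resistant cells SHC1 fell and the ERK substrate kinase RPS6KA1 rose. Their median changes were -0.15, -0.71 and -0.09 on the log2 scale, beside -0.07, -0.34 and -0.06 over all tested genes. Without combination A1 the cascade's median there was 0.07, beside -0.08 over all tested genes, with KSR1 at -1.73 and SHC1 at -1.17 and both still called. Of 13 other tested ERK output genes, 0 were called with lenvatinib (6 at an unadjusted p under 0.05), 4 fell in the combination (IER3, ETV1, EPHA2 and MYC, which were all called without A1, as was IER2), and in resistant cells EGR1, IER3, ETV1 and FOSL1 fell and HBEGF, an EGFR ligand, rose. EGR1, an early transcription factor, stood at 15.3 and 18.8 TPM in the Huh7 control and 1.85 and 2.64 TPM in resistant cells. In Hep3B it stood at 26.1 and 33.7 TPM in the control and 31.6 and 43.3 TPM with lenvatinib. Of all tested genes 1.10% were called lower and 1.38% higher with lenvatinib, with 13.4% at an unadjusted limma p under 0.05. The shares called lower and higher were 6.41% and 2.44% in the combination and 6.63% and 12.3% in resistant cells. Among 6 tested phosphatases of JNK and p38 or of broad substrate range, DUSP1 rose in the combination (13.03 to 23.64 TPM on average, and called without A1), and DUSP1 (16.8 to 76.6 TPM) and DUSP8 (2.92 to 8.60 TPM) rose in resistant cells, so that no gene of this list fell.

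Of 13 genes for receptors that lenvatinib inhibits and for FGF signalling, 8 were tested. With lenvatinib 0 were called, beside 2.48% of all tested genes, and 1 was at an unadjusted limma p under 0.05, beside 13.4%. For the counts below, 6.41% of all tested genes were called lower and 2.44% higher in the combination. In resistant cells 6.63% were called lower and 12.3% higher. KDR was listed at 0 in every library, and FLT1, RET, FLT4 and KIT stayed below 1 TPM. FGFR3 and FGFR4 were the most abundant of the receptors in untreated cells, FGFR4 at 252 and 263 TPM in Hep3B and 307 and 322 TPM in Huh7. In the combination PDGFRB, PDGFRA and FGFR1 fell (log2 -2.07, -2.38 and -1.54, or -1.35, -1.60 and -0.88 without A1, when KLB was called higher), and in resistant cells FGFR1 (38.2 and 37.0 TPM against 8.94 and 6.45 TPM) and FGFR4 (against 224 and 225 TPM) fell. Of 6 other tested receptors, ERBB3 fell in the combination (log2 -1.17, but not called without A1 at -0.76, adjusted p = 0.0814, limma) and ERBB2 rose in resistant cells, with 0 called with lenvatinib (1 at an unadjusted limma p under 0.05). With WWL70 none of these 6 lists had a called gene in limma, where 0.0147% of all tested genes were called. Of their 68 tested genes 4 were at an unadjusted limma p under 0.05, beside 2.87% of all tested genes.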

How the data were processed

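Bead-captured mRNA was sequenced on an Illumina instrument, per the labels' protocols. The submitters' processing notes name fastp 0.18.0 and hg38. The aligner and quantifier were not given in the sources used here. Values in the authors' deposited table are TPM of 20307 Ensembl identifiers in 12 libraries. TPM keeps no depth, so depth is unknown and no counting interval was derived. Symbols came from a table of gene names or GENCODE 29 for 19702 identifiers. Coordinates are those of GENCODE 29 on GRCh38, 1-based.

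log2(TPM + 1) of the 13645 genes with at least 1 TPM in at least 2 libraries was fitted in limma 3.58.1 (R 4.3.3) with an intensity trend and 1 mean per group on all 12 libraries. Residual degrees of freedom were 6 (prior 2.91). The fit was run on simulated data with independent noise, whose size came from the spread of the Hep3B controls. That simulation lacked the wider spread of some groups and the shared A1 deviations, so it cannot show how the fit behaves with them. A call means a p under 0.05 after Benjamini-Hochberg adjustment over all tested genes, in each of 9 comparisons. With 2 libraries a side, the smallest two-sided p of an exact permutation test is 0.333. The median standard error was 0.292 for a fold change and 0.413 for a difference of fold changes. The letters A1 and B1 were not taken to pair the samples, since not every pair of groups deviated together, although A1 minus B1 deviations of the lenvatinib, combination and resistant groups correlated at 0.616 to 0.739. The 10 genes, the other lists and the tests were chosen with earlier results of these data known. Named genes were the 10 in every comparison, up to 4 called genes per other list by smallest adjusted p, receptors that lenvatinib inhibits, and the 5 genes most like DUSP6. EGR1 in Hep3B and SPRY1 with lenvatinib were given after their values were seen, as were marker levels. Pseudocount, filter, scaling, trend, array weights, the samples in the fit, the replicate block and each library left out were varied. Leaving out 3 A1 libraries, removing a length trend and leaving combination A1 out for the other lists were added after seeing the data.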

Additional observations from a re-analysis of the deposited data

Results flagged for a closer look

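PHLDA1 was picked out because its change in resistant Huh7 differed from its change with lenvatinib in Hep3B in a test of the difference itself. It rose by 2.17 on the log2(TPM + 1) scale in Huh7 and stood 0.40 above its control in Hep3B (adjusted p = 0.624). The difference was 1.77 (SE 0.38, adjusted p = 0.0276, limma), where 6.30% of all tested genes were called in either direction. That call was lost in 9 of 26 alternatives. Both resistant libraries were above both Huh7 controls, and both lenvatinib libraries were above both Hep3B controls. The Huh7 control mean was 6.57 TPM and that of Hep3B 31.3 TPM, so the lines differed before any exposure.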

How the results depend on the processing

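The calls of DUSP6, SPRY4, ETV4 and PHLDA1 in resistant Huh7 held in all 27 alternatives and those of DUSP4, DUSP5, SPRY4, ETV4 and PHLDA1 between untreated lines in all 26. With 2 libraries per group, the count of genes called out of 10 changed with the libraries in the fit. The causes of the changes below were not tested. The share of all genes called moved too. With array weights it was 2.09% with WWL70 and 0.410% in the combination against control. Without the combination group it was 5.64% higher and 6.41% lower with lenvatinib, 16.4% for the difference and 53.8% between untreated lines. Counts in this section without a share beside them show how calls moved, not a trait of the 10 genes. Limma array weights called 8 with lenvatinib, 3 with WWL70, 3 with the combination against control, 1 against WWL70, 4 for the difference between lines and 9 between untreated lines. A fit within Hep3B called 0 with lenvatinib, 4 with the combination and 2 for it against WWL70. Without the combination group 8 were called with lenvatinib, 4 for the difference and 9 between untreated lines. A fit on the compared groups alone called 0 in the combination against control and against WWL70, 3 for the difference and 9 between untreated lines. Without the 3 A1 libraries 7 were called with lenvatinib, 1 with WWL70, 1 for the combination against lenvatinib, 4 for the difference and 9 between untreated lines, and with the length trend removed 6, 2 and 8 for lenvatinib, the difference and untreated lines. Pseudocount 5 called 3 for the difference and 9 between untreated lines. Median-ratio scaling, an adjusted p under 0.1 and the replicate block each called 8 between untreated lines. The block changed no other count by over 1.5 times. The correlations of the A1 minus B1 deviations over 15 pairs of groups ran from -0.124 to 0.0671 in 12 pairs and from 0.616 to 0.739 in the 3 pairs among lenvatinib, combination and resistant cells, so the letters were not taken to pair all samples, but those 3 A1 libraries deviated together.

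Leaving out 1 library gave 0 to 8 with lenvatinib, 0 to 0 with WWL70, 4 to 7 in the combination against control, 0 to 7 against lenvatinib, 1 to 8 against WWL70, 0 to 4 for the interaction, 4 to 10 in resistant cells, 0 to 4 for the difference and 5 to 9 between untreated lines.

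Changes of sign were limited to values that had not passed. Under median-ratio scaling SPRED2 with WWL70 was 0.0073, DUSP5 in the combination 0.00136 against control and 0.00637 against lenvatinib, PHLDA1 0.175 against lenvatinib and the ETV4 interaction 0.243. Rescaling without the most abundant genes gave 0.0412 for SPRED2 with WWL70. Pseudocount 5 gave interactions of 0.0524 for ETV4 and 0.0510 for ETV5 and a difference of 0.0918 for SPRED1. Without the 3 A1 libraries PHLDA1 was 0.134 in the combination against lenvatinib, the DUSP4 interaction 0.155 and the DUSP6 difference -0.0727. With the length trend removed these were 0.370 for PHLDA1 and interactions of 0.125 for DUSP4, 0.0142 for SPRED1, 0.0662 for ETV4 and 0.0241 for ETV5. With 1 library left out, these values crossed 0: DUSP5 with lenvatinib (-0.196 to 0.0422), SPRED2 with WWL70 (-0.0774 to 0.0725), DUSP4 (-0.130 to 0.3004) and PHLDA1 (-0.0309 to 0.521) in the combination, and PHLDA1 against lenvatinib (-0.434 to 0.118). So did the interactions of SPRED1 (-1.09 to 0.0559), ETV4 (-0.458 to 0.320), ETV5 (-1.10 to 0.418) and PHLDA1 (-0.147 to 0.405), and the differences of DUSP6 (-0.0675 to 0.591), SPRED1 (-0.276 to 0.109), SPRED2 (-0.439 to 0.239) and ETV5 (-0.649 to 0.385).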

Other observations

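The PEA3 group of ETS genes can be set beside itself across both lines. ETV1, ETV4 and ETV5 each fell in the Hep3B combination and in resistant Huh7, and in untreated cells ETV4 was higher in Huh7 (156 against 50.2 TPM on average) while ETV1 was lower (23.6 against 46.1 TPM). The 3 Sprouty genes with a mean above 1 TPM in the Hep3B control, SPRY1, SPRY2 and SPRY4, likewise fell in the combination. In resistant Huh7 SPRY1 and SPRY4 fell, and SPRY2 kept 70.8% of its control level. Beside these falls, 6.41% of all tested genes were called lower in the combination and 6.63% in resistant cells. These genes were chosen with earlier results of these data known. SPRY3 and SPRED3, the remaining genes of both families, stayed below 1.4 TPM in every library.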
